A study of Mus musculus with 16 samples.

Results

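Thalamus-enriched genes were followed in striatal RNA of Crym KO and Control mice. The set held 10 genes of 48795 in the counts table: Slc17a6, Prkcd, Rgs16, Shox2, Lhx9, Gbx2, Tcf7l2, Lef1, Zic1 and Zic4. They were picked on their lower values in Crym KO Input than in Control Input, so that difference is described here and not tested. Their use is as a check on how much neighbouring tissue each striatal dissection held. How much of their RNA came from cells of the striatum itself was not tested.

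The thalamus lies behind and medial to the striatum and sends glutamatergic axons to it and to the cortex. The RNA of thalamic neurons stays mostly in their cell bodies, outside the striatum, whereas the principal striatal cells are GABAergic medium spiny neurons. Thalamic relay neurons load glutamate into vesicles with VGLUT2, the product of Slc17a6, and their identity is set and kept by transcription factors such as Gbx2, Lhx9, Shox2, Tcf7l2 and Lef1.

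Crym encodes μ-crystallin, a thyroid hormone binding protein of a group of central striatal astrocytes, and the study asked what its loss does to astrocytes and their circuits. All 8 mice were young adult CAG-Cas9-EGFP animals, which express Cas9 and EGFP broadly, and both striata were injected with AAVs. In the 4 Crym KO mice 1 virus carried guide RNAs against Crym, and in the 4 Control mice (WT in the labels) it carried a guide against EGFP. The astrocytic GfaABC1D promoter in that virus drove a red reporter, and the guides themselves came from a U6 promoter. All mice also received GfaABC1D-driven Rpl22-HA, the RiboTag, so that an antibody against HA pulled down ribosome-bound RNA rich in astrocyte transcripts (IP). Part of each lysate was kept as Input, the bulk RNA of the dissected striatum. The 16 libraries formed the groups Crym KO IP, Control IP, Crym KO Input and Control Input, 4 mice each, and both libraries of a mouse carry its number.

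Total counts were 54638951 to 62596661 in Crym KO IP, 52632309 to 61368342 in Control IP, 39421209 to 49871036 in Crym KO Input and 44374034 to 54235574 in Control Input. The edited gene had 68.6, 66.0, 47.9 and 76.0 CPM (counts scaled to a common library total after TMM normalization) in Crym KO IP 1 to 4, against 222, 125, 189 and 213 CPM in Control IP 1 to 4. Crym had 52.5, 41.0, 42.4 and 41.4 CPM in Crym KO Input, against 52.9, 51.8, 64.6 and 54.1 CPM in Control Input, where the ranges overlapped. Medium spiny neuron markers, the defining genes of the labelled tissue, summed to 5524 to 6913 CPM in Crym KO IP, 5319 to 6580 CPM in Control IP, 3580 to 4530 CPM in Crym KO Input and 3023 to 3744 CPM in Control Input, with 10 of 10 detected in every library. By Xist and Ddx3y counts mice 1 and 2 were female and mice 3 and 4 male in both genotypes. Crym KO IP 3 followed Crym KO Input 4 (r = 0.181 across genes) more closely than Crym KO Input 3 of its own mouse (r = 0.0728), while every other IP library was closest to the Input of its own mouse.

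Markers of 2 other neighbours of the striatum set Control mouse 4 apart from all other mice. Ttr, the transthyretin gene and a choroid plexus marker, had 142 CPM in Control IP 4 and 578 CPM in Control Input 4, against at most 9.56 CPM in any other library. Pmch, a lateral hypothalamic neuropeptide gene named after its values were seen, had 8.95 CPM in Control IP 4 and 47.8 CPM in Control Input 4, against at most 0.679 CPM elsewhere. The thalamus-enriched genes did not peak in that mouse but in Control mouse 1, which was highest for 9 of 10 genes in both IP and Input among Control mice.

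The genes lie on chromosomes 1, 3, 7, 9, 14 and 19 of GRCm38 and are all protein-coding. Slc17a6 spans chr7:51622006-51671119 on the plus strand, Prkcd chr14:30595354-30626210 on the minus strand and Tcf7l2 chr19:55741820-55933654 on the plus strand. Shox2 spans chr3:66971727-66981771 on the minus strand and Lef1 chr3:131110471-131224356 on the plus strand. On chromosome 1, Gbx2 covers chr1:89927956-89931179 and Lhx9 chr1:138825186-138848577, both on the minus strand, and Rgs16 chr1:153740349-153745468 on the plus strand. Zic1 (chr9:91358058-91365810, minus strand) and Zic4 (chr9:91362413-91389348, plus strand) share 3398 bases on opposite strands. Whether the authors counted by strand is not given in the sources used here, so reads could be exchanged between Zic1 and Zic4, and between Shox2 and Rsrc1, which overlap by 382 bases on opposite strands.

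Promoters are shown for Prkcd, Shox2 and Zic4, picked on holding the core motif of TCF/LEF factors, which the proteins of Tcf7l2 and Lef1 bind, and for Zic1, the neighbour of Zic4, which holds none. Capitals mark the motif. The motif searched was CTTTGA, on both strands, so that it appears as TCAAAG where it lies on the other strand. Each sequence runs 5′ to 3′ on the strand of its gene, from 250 bases before to 50 bases after a RefSeq start site of GRCm38.p6. Prkcd is chr14:30626159-30626458 (minus strand), Shox2 chr3:66981722-66982021 (minus strand), Zic1 chr9:91365719-91366018 (minus strand) and Zic4 chr9:91368722-91369021 (plus strand).
Prkcd: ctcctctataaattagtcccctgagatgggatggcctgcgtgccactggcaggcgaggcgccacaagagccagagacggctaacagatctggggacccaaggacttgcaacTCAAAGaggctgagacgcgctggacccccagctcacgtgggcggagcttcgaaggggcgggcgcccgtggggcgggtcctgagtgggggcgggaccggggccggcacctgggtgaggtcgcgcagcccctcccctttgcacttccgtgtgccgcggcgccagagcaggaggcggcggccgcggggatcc
Shox2: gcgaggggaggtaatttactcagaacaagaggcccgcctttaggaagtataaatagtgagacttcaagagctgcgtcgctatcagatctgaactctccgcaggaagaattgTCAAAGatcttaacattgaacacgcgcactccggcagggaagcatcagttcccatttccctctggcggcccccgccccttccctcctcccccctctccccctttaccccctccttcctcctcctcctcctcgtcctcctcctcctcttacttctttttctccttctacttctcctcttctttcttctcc
Zic1: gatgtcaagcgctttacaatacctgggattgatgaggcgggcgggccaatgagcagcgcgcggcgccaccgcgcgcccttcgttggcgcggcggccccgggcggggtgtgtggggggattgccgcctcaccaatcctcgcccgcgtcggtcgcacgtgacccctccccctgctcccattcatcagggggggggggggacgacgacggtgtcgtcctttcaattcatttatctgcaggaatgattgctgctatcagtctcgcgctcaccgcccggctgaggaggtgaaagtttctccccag
Zic4: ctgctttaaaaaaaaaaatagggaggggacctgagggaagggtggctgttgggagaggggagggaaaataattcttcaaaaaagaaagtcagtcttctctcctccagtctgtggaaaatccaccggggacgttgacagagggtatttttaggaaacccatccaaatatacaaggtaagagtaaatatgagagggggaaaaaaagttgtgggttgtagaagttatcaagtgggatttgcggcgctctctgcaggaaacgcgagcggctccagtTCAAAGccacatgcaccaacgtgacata
All 10 genes were matched by symbol, with 16 start sites in all, and 4 of these windows (25.0%) held the motif, against 16% of all 32851 mouse promoter windows of the same length. The 4 windows belonged to Prkcd, Shox2, Zic4 and a far downstream start site of Lef1. The motif lay at position -139 from the start site in both Prkcd and Shox2 and at 22 in Zic4. No window of Slc17a6, Lhx9, Rgs16, Gbx2, Tcf7l2 or Zic1 held it. A match of these letters is a description of the sequence, not of a bound site.

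Slc17a6, the vesicular glutamate transporter of thalamic relay neurons, had lower values in Crym KO mice than in any Control mouse of the same fraction. In IP it had 4.80, 12.1, 8.07 and 9.21 CPM in Crym KO mice 1 to 4, against 37.2, 30.5, 15.0 and 22.7 CPM in Control mice 1 to 4. In Input it had 18.8, 27.5, 25.7 and 20.4 CPM in Crym KO, against 59.6, 42.4, 27.7 and 52.4 CPM in Control. Neither pair of groups overlapped, though Crym KO Input 2 lay just below Control Input 3. In IP the Crym KO mean of 8.55 ± 3.03 CPM was 32.5% of the Control mean of 26.3 ± 9.60 CPM (SD, n = 4 each). The log2 fold change in IP was -1.61 ± 0.35 (SE), which did not pass limma-voom with Benjamini-Hochberg adjustment over 20645 genes (adjusted p = 0.268). With the replicate number as a block, limma-voom gave -1.61 and an adjusted p of 0.0396, and without Control IP 3 it gave -1.86 and 0.0499. That block joins different mice that share a number and a sex, and the labels give no reason for the pairing. Of the 19 settings run for Slc17a6 in IP, 16 left the result of the main fit unchanged.

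Prkcd and Rgs16 encode signalling proteins, the δ isoform of protein kinase C and a regulator that speeds GTP hydrolysis by G protein α subunits. Prkcd had 9.36, 11.2, 8.73 and 10.5 CPM in Crym KO IP, against 72.0, 34.2, 8.76 and 18.4 CPM in Control IP. The Control IP libraries thus spread over 8.22-fold and their lowest, mouse 3, lay within the Crym KO range. In Input Prkcd had 13.3, 11.3, 17.0 and 7.07 CPM in Crym KO, against 91.1, 39.0, 29.5 and 38.4 CPM in Control. The Input groups did not overlap, and Control mouse 1 was the highest library in either fraction. Prkcd in IP had a log2 fold change of -1.34 ± 0.57 (SE; limma-voom adjusted p = 0.613).

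Rgs16 had 5.15, 4.82, 6.26 and 3.19 CPM in Crym KO IP, against 11.6, 9.19, 4.99 and 5.64 CPM in Control IP. Its IP groups overlapped, with Control mice 3 and 4 at Crym KO levels. In Input Rgs16 had 5.85, 6.29, 5.96 and 4.47 CPM in Crym KO, against 20.4, 9.66, 8.90 and 13.6 CPM in Control. The Input groups were apart, at a Crym KO mean of 42.9% of the Control mean, and the log2 fold change in IP was -0.66 ± 0.32 (SE; limma-voom adjusted p = 0.655).

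Shox2, Lhx9 and Gbx2 are homeodomain transcription factors of the developing and mature thalamus. Shox2 had 0.156, 0.128, 0.207 and 0.0175 CPM in Crym KO IP, against 5.18, 2.70, 0.228 and 1.26 CPM in Control IP. The groups did not overlap, but Control mouse 3 lay just above Crym KO mouse 3. In Input Shox2 had 0.728, 0.625, 1.26 and 0 CPM in Crym KO, against 11.9, 3.50, 2.53 and 5.37 CPM in Control. Crym KO Input 4 held 0 Shox2 reads, which allows up to 0.0717 CPM (3 counts in that library, counting error only). The Crym KO Input mean was 11.2% of the Control Input mean. The fitted log2 difference in Input, which averages libraries on the log scale, was -3.87, and -2.51 without Crym KO Input 4. In IP the log2 fold change of Shox2 was -3.76 ± 1.86 (SE; limma-voom adjusted p = 0.658). It was -3.07 without Crym KO IP 4, which held 1 Shox2 read, -3.14 without Control IP 1 and -4.66 without Control IP 3, and -2.95 without Control mice 1 and 4, so the size of the Shox2 difference depends on single libraries.

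Lhx9 had 0.0975, 0.328, 0.0345 and 0.0700 CPM in Crym KO IP, against 1.18, 1.02, 0.281 and 0.407 CPM in Control IP. Only Crym KO mouse 2 reached the Control range. In Input it had 0.192, 0.341, 0.224 and 0.239 CPM in Crym KO, against 2.71, 1.49, 0.774 and 2.19 CPM in Control, with no overlap. The log2 fold change in IP was -2.59 ± 0.82 (SE; limma-voom adjusted p = 0.478), and -1.70 without Crym KO mice 3 and 4. Counts of Lhx9 in Crym KO IP were 5, 18, 2 and 4 reads, so its level there is coarse.

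Gbx2 behaved differently from the other homeodomain genes. It had 0.897, 0.949, 0.707 and 1.58 CPM in Crym KO IP, against 1.29, 1.14, 0.878 and 1.28 CPM in Control IP, and the highest IP library was that of Crym KO mouse 4. In Input it had 0.441, 0.208, 0.592 and 0.215 CPM in Crym KO, against 1.74, 0.577, 0.430 and 1.12 CPM in Control. Gbx2 was the single gene of the set whose Input groups overlapped, and its log2 difference in Input was -1.26, or -0.56 without Control mice 1 and 4. Its log2 fold change in IP was -0.19 ± 0.34 (SE; limma-voom adjusted p = 0.920).

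Tcf7l2 and Lef1 are the DNA-binding partners of β-catenin in Wnt signalling, and Tcf7l2 is a broad marker of postmitotic thalamic neurons. Tcf7l2 had 3.88, 4.38, 3.91 and 5.01 CPM in Crym KO IP, against 7.63, 5.10, 4.11 and 5.15 CPM in Control IP. Control IP 1 stood above the rest, and the other 3 lay at or close to Crym KO levels. In Input Tcf7l2 had 2.87, 2.76, 3.12 and 2.25 CPM in Crym KO, against 9.08, 5.49, 3.77 and 6.24 CPM in Control, with no overlap. The log2 fold change of Tcf7l2 in IP was -0.32 ± 0.22 (SE; limma-voom adjusted p = 0.769).

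Lef1 had 2.44, 1.90, 1.60 and 1.80 CPM in Crym KO IP, against 3.82, 2.11, 1.42 and 1.77 CPM in Control IP, where the groups overlapped widely. In Input it had 2.97, 2.48, 2.94 and 2.58 CPM in Crym KO, against 7.32, 3.50, 3.72 and 4.10 CPM in Control, with no overlap. Crym KO Input libraries of Lef1 were tightly grouped, at 2.74 ± 0.25 CPM, against 4.66 ± 1.79 CPM in Control Input (SD, n = 4 each). The log2 fold change of Lef1 in IP was -0.16 ± 0.30 (SE; limma-voom adjusted p = 0.923), 0.12 without Control IP 1 and 0.01 without Crym KO mice 3 and 4.

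Zic1 and Zic4 encode zinc finger transcription factors that are also made in the septum, so they are less particular to the thalamus. Zic1 had 30.6, 31.8, 26.0 and 35.6 CPM in Crym KO IP, against 42.1, 40.3, 28.4 and 36.6 CPM in Control IP. In Input Zic1 had 13.4, 12.9, 15.0 and 11.6 CPM in Crym KO, against 37.3, 29.6, 21.1 and 24.6 CPM in Control. Zic1 was thus lower in every Crym KO Input library than in any Control Input library, while only Control IP 3 fell inside the Crym KO IP range. The log2 fold change of Zic1 in IP was -0.24 ± 0.15 (SE; limma-voom adjusted p = 0.729).

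Zic4 had 1.52, 1.77, 1.48 and 2.12 CPM in Crym KO IP, against 2.00, 2.74, 2.04 and 2.08 CPM in Control IP. In Input it had 1.05, 1.44, 1.43 and 0.980 CPM in Crym KO, against 2.59, 3.08, 1.82 and 2.21 CPM in Control. The groups overlapped in IP but not in Input, and Control mouse 2, not mouse 1, was the highest for Zic4 in both fractions. For Zic4 the log2 fold change in IP was -0.37 ± 0.18 (SE; limma-voom adjusted p = 0.654).

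**Figure D1:**
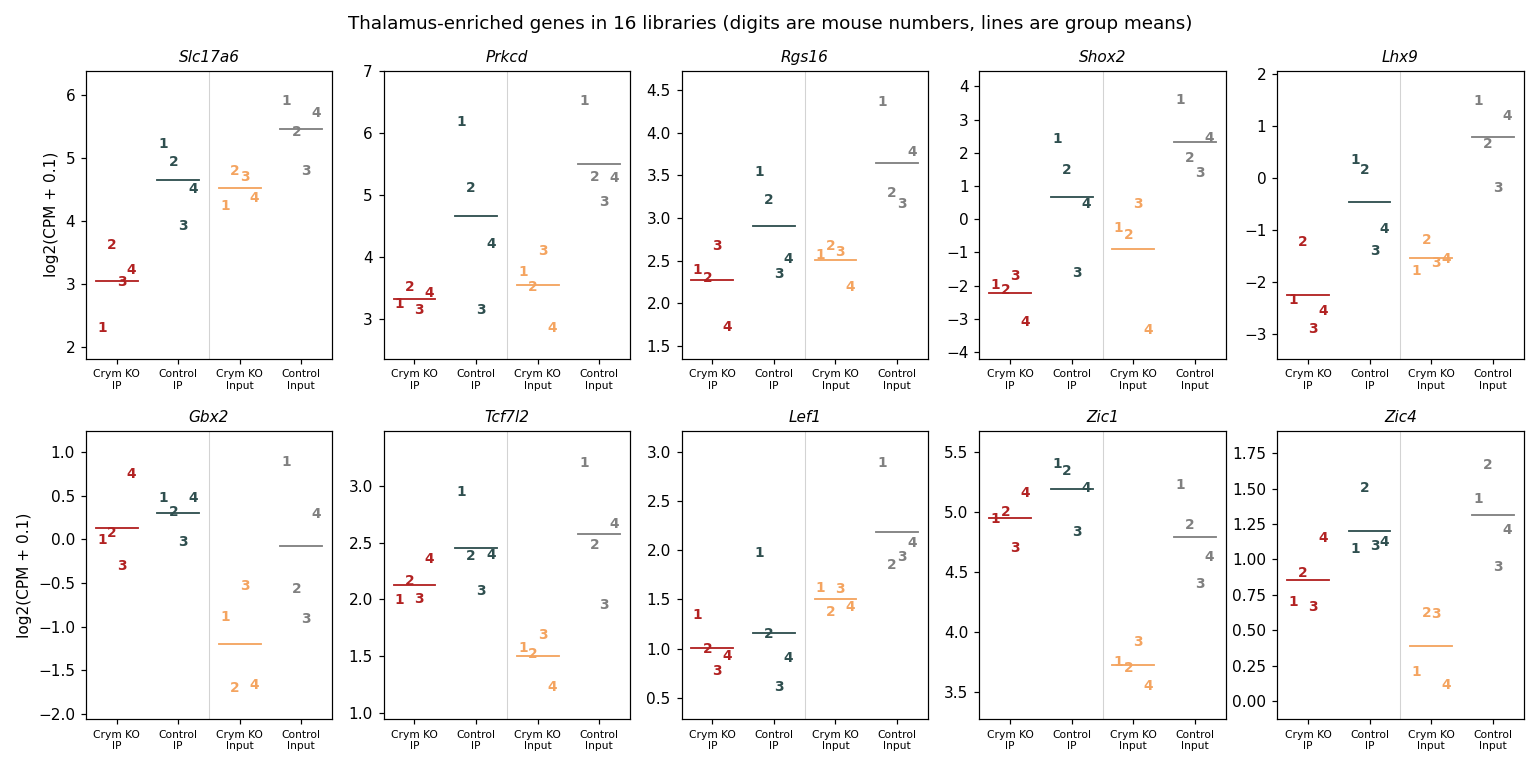
Each panel plots 1 gene on a log2(CPM + 0.1) axis in the 4 groups, with digits for mouse numbers and lines for the means of the plotted values (n = 4). In Input the Crym KO libraries lie below all Control libraries for every gene but Gbx2, and Control mouse 1 is the highest Input library for 9 of 10 genes.

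The genes were picked on Input values with earlier results of these data known, and IP came from the same lysates. The IP comparison is thus no independent check. In IP, 0 of 10 genes passed an adjusted p of 0.05 in limma-voom. Over all genes 7 of 20645 (0.0339%) passed. Without adjustment 3 of the 10 (Slc17a6, Lhx9 and Prkcd) and 1583 of all genes (7.67%) were under 0.05. edgeR's quasi-likelihood test called 0 of the 10 (0.0436% of all genes) and DESeq2 called 3, Slc17a6 (adjusted p = 0.00121), Lhx9 (0.0114) and Shox2 (0.0249), among 71 genes of all (0.344%). Lhx9 and Shox2 each reached the level of the expression filter in 1 of 4 Crym KO IP libraries, against 4 of 4 in Control IP. Their calls thus rest on few Crym KO reads and are not read as support. With the replicate number as a block, 1 of the 10 passed in limma-voom, Slc17a6, among 43 genes of all (0.208%).

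All 10 log2 fold changes in IP were below 0, with a median of -0.51, whereas 48.6% of all genes were below 0 and their median was 0.00. The IP and Input libraries came from the same lysates, so the IP values are not free of whatever set the Input values of a mouse. The 4 Crym KO libraries lay below all 4 Control libraries for 2 of 10 genes in IP (Slc17a6 and Shox2), against 1.52% of all genes. In Input, which chose the genes, this held for 9 of 10 genes, against 2.77% of all genes. The median log2 difference of the 10 genes in Input was -1.09, with a range from -3.87 for Shox2 to -0.68 for Lef1, and the median of all genes was 0.00. All 10 genes passed the expression filter, but Shox2 and Lhx9 met its level in only 1 of 4 Crym KO IP libraries. Because the tissue was bulk, fewer cells of a type and less RNA per cell cannot be told apart.

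**Figure D2:**
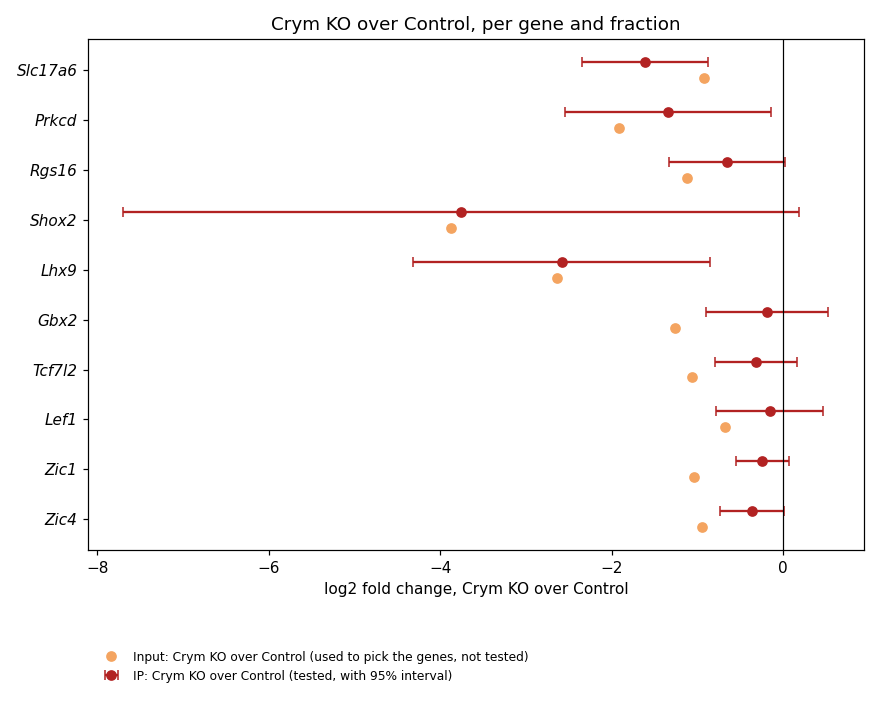
Points show the log2 fold change of Crym KO over Control for each of the 10 genes, in IP with its 95% interval (limma-voom, n = 4 each) and in Input as a point with no test. The IP values run from -3.76 for Shox2 to -0.16 for Lef1 and the Input values from -3.87 to -0.68.

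IP over Input, averaged over both genotypes, compared ribosome-bound RNA rich in astrocyte transcripts with bulk RNA. It is another contrast than the one on which the genes were chosen, but it uses the same Input libraries, so its calls are not independent of that choice and are read only beside the share of all genes called. Lower in IP were Slc17a6 (log2 -1.14 ± 0.22 SE, adjusted p = 0.000144), Lef1 (-0.78 ± 0.19, 0.00125), Lhx9 (-1.32 ± 0.51, 0.0251) and Rgs16 (-0.49 ± 0.22, 0.0471) by limma-voom. Higher in IP were Zic1 (0.82 ± 0.12, adjusted p = 5.29e-06) and Gbx2 (1.00 ± 0.29, 0.00487). The other genes did not pass, at -0.53 ± 0.39 for Prkcd (adjusted p = 0.216), -1.68 ± 1.15 for Shox2 (0.184), 0.27 ± 0.17 for Tcf7l2 (0.157) and 0.19 ± 0.13 for Zic4 (0.183). These 4 of 10 lower and 2 of 10 higher stand against 42.3% of all genes lower and 40.3% higher, so the shares are no larger than the background. With upper quartile scaling 52% of all genes were lower and 29.9% higher, and with library size scaling 53.9% and 28%, while the same number of the 10 passed.

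The IP and Input libraries of a mouse are paired, and with the mouse as a block limma-voom called 9 of 10 genes, 6 lower and 3 higher in IP, against 42.6% of all genes lower and 40.7% higher. This fit rests on the match of libraries within mice, which was weak for Crym KO IP 3 (r = 0.0728 with its own Input, and -0.012 on autosomes). Without Crym KO mice 3 and 4, left out after seeing the data, the block called 6 of 10, 4 lower and 2 higher, against 40.2% of all genes lower and 38.5% higher. The calls added with all mice were Prkcd (-0.49 ± 0.18 SE, adjusted p = 0.0243), Shox2 (-1.74 ± 0.40, 0.00147) and Tcf7l2 (0.24 ± 0.09, 0.0212). Without those mice Prkcd (adjusted p = 0.0635), Lhx9 (0.0625) and Tcf7l2 (0.0552) did not pass by the block in limma-voom. In the fit with no block, the call for Rgs16 was lost without any 1 of Crym KO mice 1 to 4 or Control mouse 4 (adjusted p 0.0591 to 0.124), with no filter on low counts (0.0734) without Control mice 1 and 4 together (0.0775) and without Crym KO mice 3 and 4 together (0.131). The call for Lhx9 was lost without Crym KO mouse 3, Crym KO mouse 4 or Control mouse 4 (adjusted p 0.0554 to 0.0850) and without Crym KO mice 3 and 4 together (0.242).

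Within single mice, Slc17a6, Lhx9 and Lef1 were lower in IP than in Input in 8 of 8 mice. Zic1 was higher in IP in 8 of 8 mice, by 0.78 to 1.61 on the log2 scale in Crym KO mice and by 0.18 to 0.57 in Control mice. For Slc17a6 the same difference was -1.95 to -1.14 in Crym KO mice and -1.21 to -0.47 in Control mice. Without Crym KO mice 3 and 4, whose match is in doubt, Slc17a6, Lhx9 and Lef1 were lower in 6 of 6 mice and Zic1 was higher in 6 of 6, and the Crym KO range was 1.19 to 1.30 for Zic1 and -1.95 to -1.17 for Slc17a6. Whether these differences differ between genotypes was not tested, since they contain the Input values that chose the genes. The share of all genes with the same sign in all mice is not given. In limma-voom 42.3% of all genes were called lower and 40.3% higher in IP, so these counts are not read as particular to the genes.

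**Figure D3:**
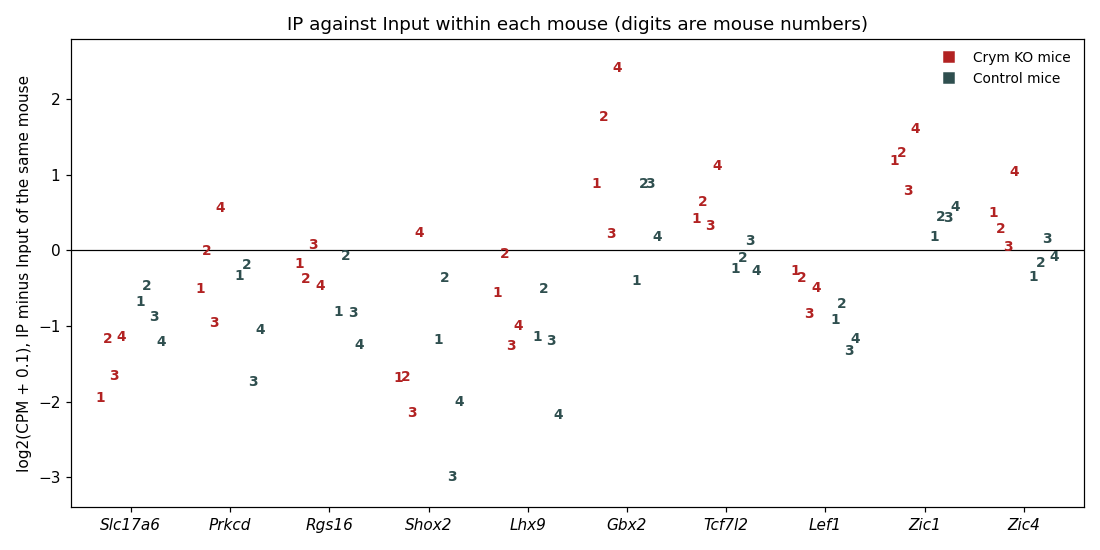
Digits give, for each mouse, the log2(CPM + 0.1) in IP minus that in Input, with Crym KO mice left of Control mice for each gene. Slc17a6, Lhx9 and Lef1 lie below 0 in all 8 mice and Zic1 above 0 in all 8. Prkcd, Rgs16 and Shox2 lie below 0 in 7 of 8. The share of all genes doing so is not given.

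The order of the groups differed between genes. Control Input had the highest mean for 8 of 10 genes, and Control IP for Zic1 and Gbx2. The lowest mean was in Crym KO IP for 6 genes (Slc17a6, Prkcd, Rgs16, Shox2, Lhx9 and Lef1) and in Crym KO Input for 4 (Gbx2, Tcf7l2, Zic1 and Zic4). Most neighbours in these orders overlapped in their libraries. The exceptions were Crym KO IP below Crym KO Input for Slc17a6, Crym KO Input below Crym KO IP for Tcf7l2 and Zic4, Crym KO Input below Control Input for Zic1, and Crym KO Input below Control Input for Lef1.

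Per kilobase of exon, the genes fell into an upper and a lower tier that did not touch in any group. In Crym KO IP the upper tier was Zic1 (5.44 CPM per kb), Rgs16 (2.07), Prkcd (1.80) and Slc17a6 (1.58), and in Control IP it was Zic1 (6.47), Prkcd (6.02), Slc17a6 (4.88) and Rgs16 (3.35). In Crym KO Input it was Slc17a6 (4.28), Rgs16 (2.41), Zic1 (2.32) and Prkcd (2.19), and in Control Input Prkcd (8.93), Slc17a6 (8.43), Rgs16 (5.62) and Zic1 (4.94). Within this tier the ranges of neighbours overlapped, except that Zic1 stood above Rgs16 in Crym KO IP and Slc17a6 above Rgs16 in Crym KO Input. The lower tier ran from at most 0.490 CPM per kb in Crym KO IP (Tcf7l2) and 1.76 in Control Input (Shox2) down to Lhx9, the lowest of all in each of the 4 groups, at 0.0140 in Crym KO IP and 0.189 in Control Input.

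The genes varied together among mice of the same genotype. The 8 Input libraries also served to pick the genes, so the correlations in Input are not independent of that choice. After subtracting group means, the 45 pairs of genes had Pearson correlations of 0.09 to 0.95 over the 8 Input libraries, with a median of 0.75 and 45 of 45 above 0. Over the 8 IP libraries the range was -0.29 to 0.90, with a median of 0.62 and 41 of 45 above 0. Tcf7l2 followed the mean of the other 9 genes most closely in Input (r = 0.97), then Prkcd (0.94) and Rgs16 (0.92), and Zic4 least (0.53). These points share libraries, and each mouse contributes 1 dissection to all 10 genes. Control mouse 1 was the highest Control Input library for 9 of 10 genes. No value for pairs of all genes is given beside these correlations, so they are not read as particular to the set.

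The mean deviation of the 10 genes from their group mean, on the log2 scale, ordered the mice. In Input it was 0.07, 0.08, 0.34 and -0.49 in Crym KO mice 1 to 4, and 0.70, -0.17, -0.61 and 0.08 in Control mice 1 to 4. In IP it was -0.06, 0.20, -0.11 and -0.02 in Crym KO mice, and 0.68, 0.29, -0.77 and -0.19 in Control mice. Control mouse 1 was highest and Control mouse 3 lowest in both fractions, 9 of 10 genes being lowest in Control mouse 3 each time. Among Crym KO mice as labelled, mouse 3 was the highest in Input and the lowest in IP. That order depends on the Input libraries of Crym KO mice 3 and 4 carrying the right numbers, and Crym KO IP 3 was closer to Crym KO Input 4 than to its own.

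Summed over the 10 genes, levels were 58.9, 69.5, 57.0 and 69.1 CPM in Crym KO IP, against 184, 129, 66.2 and 95.2 CPM in Control IP. In Input they were 59.6, 65.8, 73.3 and 49.8 CPM in Crym KO, against 244, 138, 100.2 and 150.3 CPM in Control. The Input sums did not overlap, and in IP Control mouse 3 lay inside the Crym KO range. Zic1, which is less particular to the thalamus, made up much of the Crym KO IP sums. It gave 26.0 to 35.6 CPM in Crym KO IP and 28.4 to 42.1 CPM in Control IP. In Input it gave 11.6 to 15.0 CPM in Crym KO and 21.1 to 37.3 CPM in Control. Control mice 1 and 4 stood apart in thalamic and in hypothalamic and choroid plexus markers. Without them the median log2 difference of the 10 genes in Input was -0.81. Of the 10 genes 9 did not overlap, against 8.53% of all genes, a description in the Input libraries that chose the genes. In IP without these mice 0 of 10 passed in limma-voom and 2 did not overlap, against 7.11% of all genes.

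Genes of a further list of 13 thalamic markers, not among the 10, were also on the low side in Crym KO mice. That list was chosen with earlier results of these data known, so its counts are no independent check. In IP 13 of 13 were below 0, against 48.6% of all genes, and 0 passed, with a median log2 fold change of -0.28. Without Control mouse 4 in either fraction, left out after seeing the data, 12 of 13 were below 0 in IP, with a median of -0.35. In Input 13 of 13 were below 0, against 50.2% of all genes, with a median of -0.55, and 6 of 13 did not overlap between groups, against 2.77% of all genes. Calb2, which encodes the calcium-binding protein calretinin, had 3.59, 3.81, 3.79 and 4.39 CPM in Crym KO IP, against 6.49, 18.0, 6.81 and 17.6 CPM in Control IP, a log2 fold change of -1.47 ± 0.43 (SE; limma-voom adjusted p = 0.463). In Input Calb2 had 5.17, 5.94, 4.88 and 4.11 CPM in Crym KO, against 11.9, 13.9, 8.43 and 24.9 CPM in Control. Its Control values were highest in mice 2 and 4 in both fractions, the mice that also had the most oxytocin RNA (Oxt) in Control Input, and the part of other regions in the Calb2 difference was not tested. Plekhg1 averaged 42.0 CPM in Crym KO IP and 58.6 CPM in Control IP (-0.44 ± 0.19, adjusted p = 0.617). Vipr2, a receptor for vasoactive intestinal peptide, averaged 0.787 CPM in Crym KO Input and 2.32 CPM in Control Input.

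Markers of other neighbours moved unevenly. Of the hypothalamus list 5 of 8 genes were tested, all 5 were below 0 in Crym KO Input (median log2 difference -3.04) and in Crym KO IP (median log2 fold change -2.55), and 0 passed in IP. Without Control mouse 4, all 5 stayed below 0, with medians of -1.74 in Input and -1.97 in IP. Summed, the list had 2.63 to 4.35 CPM in Crym KO Input and 4.92 to 87.0 CPM in Control Input, with 2 of 8 genes at 0 in each Crym KO Input library and 0 or 1 in Control Input. In IP it summed to 7.76 to 9.40 CPM in Crym KO, with 3 of 8 genes at 0 in each library, and to 8.87 to 37.3 CPM in Control, with 0 or 1 at 0. Most of the IP sum outside Control mouse 4 was 1 gene, Trh. It had 9.17, 7.23, 7.57 and 7.58 CPM in Crym KO IP, against 12.2, 8.34, 8.08 and 11.3 CPM in Control IP. Oxt, the oxytocin gene, had 0.0192, 0.0379, 0 and 0 CPM in Crym KO Input, against 0.127, 2.01, 0.138 and 6.74 CPM in Control Input.

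The choroid plexus list summed to 12.9 to 15.3 CPM in Crym KO Input and 12.8 to 640 CPM in Control Input, where only Control mouse 4 was above 17.3 CPM. In IP it summed to 9.90 to 17.2 CPM in Crym KO and 13.4 to 171 CPM in Control. Of its 9 genes 7 were tested and 0 passed in IP (median log2 fold change -0.50). Without Control mouse 4 the medians were 0.04 in Input and -0.23 in IP, against -0.86 and -0.50 with all mice. No gene was at 0 in any Control library, and at most 1 and 2 genes were at 0 in Crym KO IP and Crym KO Input libraries. The part of neighbouring tissue in the differences of the 10 genes was not tested.

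**Figure D4:**
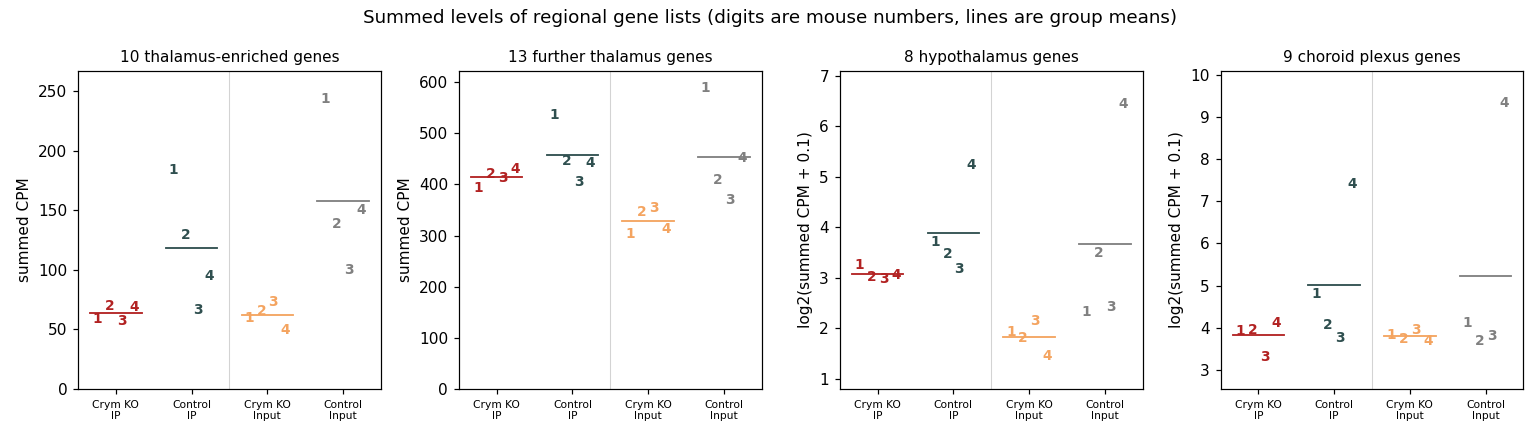
Digits mark mice by number and lines the means of the plotted values for 4 lists of regional genes, as summed CPM for both thalamic lists and as log2(summed CPM + 0.1) for hypothalamus and choroid plexus. Control mouse 1 is highest for both thalamic lists in each fraction, and Control mouse 4 for hypothalamus and choroid plexus. In the sum of the further thalamic list Rora alone gave 245 of 588 CPM in Control Input 1 and 212 of 535 CPM in Control IP 1. In the hypothalamus sum Trh alone gave 9.17 of 9.40 CPM in Crym KO IP 1 and 11.3 of 37.3 CPM in Control IP 4.

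Habenula and septum markers were closer to even. Of 7 habenula genes 6 were tested, with a median of -0.11 in IP and -0.03 in Input, and 0 passed in IP. Of 8 septum genes, with medians of -0.22 in IP and -0.08 in Input, Nts passed in IP. Nts, the neurotensin precursor, averaged 5.20 CPM in Crym KO IP and 11.3 CPM in Control IP (log2 -1.11 ± 0.14 SE, limma-voom adjusted p = 0.00344), and 7.19 CPM in Crym KO Input and 7.45 CPM in Control Input.

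Of the cell type lists, medium spiny neuron genes were above 0 in Input (10 of 10, median log2 difference 0.25), where the median of all genes was 0.00. Genes of neighbouring cortex, from a list of cortical glutamatergic neuron markers, centred at -0.05 in Input and 0.33 in IP. Median log2 fold changes in IP and differences in Input were 0.11 and -0.04 for 10 astrocyte genes, -0.34 and 0.02 for 9 oligodendrocyte genes, 0.06 and 0.06 for 5 premyelinating oligodendrocyte genes, -0.09 and 0.07 for 7 endothelial genes, -0.18 and -0.03 for 7 leptomeningeal fibroblast genes, and -0.25 and -0.07 for 6 microglia genes. In IP 0 genes of these 8 lists passed in limma-voom, although 9 of 9 oligodendrocyte genes were below 0, against 48.6% of all genes, and 7 of them had an unadjusted p under 0.05, against 7.67% of all genes.

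The 10 genes outside the set whose variation among mice was most like the members' mean in Input, by Pearson r over the 8 libraries after subtracting group means, were Anks1 (0.98), Eif3g (0.98), Gm5576 (0.97), Fign (0.96), Patj (0.96), Myh7b (0.96), Mrpl12 (0.95), Ndufa4 (0.95), Fam19a4 (0.95) and BB218582 (0.95). They were the highest of 15776 genes with at least 1 CPM on average. Of these, Fam19a4 (log2 difference -1.34) and Patj (-0.54) were farthest from 0 in Crym KO Input, and 0 of the 10 passed in IP in limma-voom.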

How the data were processed

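RNA was sequenced from 16 libraries of 8 mice, IP and Input of each striatum, from TruSeq libraries. Per the labels and the submitters' processing notes, the authors used bcl2fastq 2.17, STAR and HTSeq on mm10 (GRCm38); uniquely mapped fragments were counted after removal of ribosomal RNA, and strand use is not given in the sources used here. The deposited table holds raw counts per Ensembl gene, 48795 genes, of which 48349 were matched to symbols and 446 (0.0892% of counts) were not. A RefSeq annotation is named in the methods of the study, although the identifiers are Ensembl's.

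Genes passing edgeR's expression filter (20645, about 0.187 CPM in 4 libraries) were TMM-scaled and fitted with limma-voom in 4 group means, with two-sided tests, Benjamini-Hochberg adjustment and a threshold of 0.05. Levels are CPM on TMM-scaled totals, and log values outside the fit use log2(CPM + 0.1). Alternatives were edgeR, DESeq2, other scalings and filters, replicate blocks, single fractions and leaving out each replicate; leaving out Control mouse 4 (for the other lists), Control mice 1 and 4 together, or Crym KO mice 3 and 4 together (with and without the mouse block), was added after seeing the data. Versions were R 4.3.3, limma 3.58.1, edgeR 4.0.16 and DESeq2 1.42.0. The fit was tested on simulated data.

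The members and gene lists were chosen with earlier results of these data known. All 10 members were named, and of other lists those with the smallest p in IP or the largest Input difference, where a result turned on them, and the 10 genes most like the members among mice. In the labels, 1 identifier marks both libraries of a mouse, and across genes their deviations correlated at 0.0728 to 0.268 in Crym KO and 0.231 to 0.463 in Control mice. Same-numbered Crym KO IP and Control IP libraries, from different mice, correlated at 0.163 to 0.312, all 4 above 0.1, so values with the replicate number as a block are given beside those of the IP comparison, which itself has no block. They also share their sex, and on autosomes the range was 0.0654 to 0.268. Of the 4 Crym KO IP libraries 3 were closest to the Control IP library of their own number, and 2 on autosomes. No libraries were identical, and all columns of the table were used. Promoters came from RefSeq (GRCm38.p6). Counting floors cover counting error only. 1 gene of the septum list is not reported here by name.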

Additional observations from a re-analysis of the deposited data

Results flagged for a closer look

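Each gene was checked in each group of 4 libraries for a highest or lowest library far from the others, by its gap to the nearest library as a share of the group's range (Dixon's critical value 0.829). Of 40 groups tested 3 were past it, and chance gives about 5% of groups. Prkcd in Control Input had a gap of 0.846 of the range, because mouse 1 (91.1 CPM) stood above mice 2 to 4 (39.0, 29.5 and 38.4 CPM). Lef1 in Control Input had a gap of 0.841, again with mouse 1 high (7.32 CPM, the others 3.50 to 4.10 CPM). Zic4 in Control IP had a gap of 0.902, with mouse 2 high (2.74 CPM, the others 2.00 to 2.08 CPM). The causes were not tested.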

How the results depend on the processing

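In IP, limma-voom called 0 of 10 genes, and DESeq2 called 3 and the replicate block 1; leaving out 1 library gave 0 to 1, the 1 being Slc17a6 without Control IP 3. The other settings gave 0. Over all genes the count was 7 in limma-voom, 9 in edgeR, 71 in DESeq2, 43 with the block, 36 without Control IP 4, 11 without Control IP 3, 2 with the IP libraries alone and 42 without Control mice 1 and 4. The adjusted p of Slc17a6 ranged from 0.00121 to 0.884 over the planned settings, and reached 0.9967 over all 19 settings run. For IP over Input, 6 of 10 passed (82.6% of all genes), 9 with the mouse as a block (83.3%), and 4 to 8 when 1 mouse was left out (80.1% to 81.3%): 8 without Control mouse 1, and 4 without Crym KO mouse 3, Crym KO mouse 4 or Control mouse 4. Without Crym KO mice 3 and 4, also chosen after seeing the data, 4 passed (77.2%), and 6 with the block (78.7%), 0 passed in IP, and the median Input difference was -1.04. Here the scaling moved the median of all genes, to -0.18 with upper quartile and -0.21 with library size, against -0.02 with TMM. The median Input difference was -1.09, between -1.29 (without Control Input 3) and -0.91 (without Control Input 1) when 1 library was left out, and -1.15 with the replicate block, where same-numbered libraries correlated at 0.0646 to 0.195 and 2 of 4 Crym KO libraries were closest to their own number. Leaving out Control mice 1 and 4, a choice made after seeing the data, gave -0.81. Every gene stayed below 0 in each Input setting run. The genes were picked for lower Crym KO Input values, so that sign is no test of the difference. Shox2 and Lhx9 rest on few reads in Crym KO mice, which limits the precision of their folds. The causes of these shifts were not tested.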
